A study of Mus musculus with 2 samples.

Results

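The insulin-like growth factor (IGF) genes described here are the ligand Igf1, its receptor Igf1r, the receptor substrates Irs1 and Irs2, and the binding proteins Igfbp2 to Igfbp7. They were chosen by name, with earlier results of these data known. Every probe set that the platform annotation assigns to exactly 1 of these 10 genes was used: 26 of the 34945 probe sets naming 1 gene, on an array of 45101. By gene these are 10 of 18193. The arrays measured RNA of uterine cells taken from C57BL/6 females at pregnancy day 4, when the mouse uterus becomes receptive to the embryo. The control array came from mice with floxed Msx1 and Msx2 alleles. The null array (Msx1Msx2-null) came from mice that had lost both of these homeobox genes through PRcre, in which the progesterone receptor gene drives Cre, so that deletion can occur in any cell type with that receptor. The labels do not say whether the controls carried PRcre, and the age of the mice is not given in the sources used here.

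IGF1 is a secreted peptide that binds a receptor tyrosine kinase, IGF1R. The activated receptor phosphorylates the docking proteins IRS1 and IRS2, which recruit phosphoinositide 3-kinase and so switch on AKT and the growth regulator mTOR. The classical binding proteins, IGFBP1 to IGFBP6, hold IGFs in the extracellular space with high affinity and can either withhold the ligand or deliver it, while IGFBP7 binds IGFs weakly. In the mouse uterus Igf1 is induced by oestrogen, is made largely by the stroma, and acts on the receptor of the overlying epithelium, where it promotes proliferation.

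The members went in opposite directions. Of 8 members that could be compared, Igfbp4, Irs1 and Igfbp7 exceeded the control by 2-fold or more and Igfbp3 and Igf1r were below it by 2-fold or more, while Igf1, Igfbp5 and Igfbp6 were less than 2-fold apart. Over all 11662 genes compared, 7.73% were at least 2-fold higher and 4.75% at least 2-fold lower. The median log2 difference, null minus control, was -0.10 over the 8 members and 0.08 over all genes. The member median ran from -0.39, with the arrays set equal on spike-in controls, to 0.04, with the median over the probe sets of a gene, so its sign was not stable. Irs2 and Igfbp2 were too dim to compare on either array. With 1 array per genotype there was no replicate and no test, and precision is limited by that number.

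A comparison needs a few terms. The deposited values are MAS5 signals, the brightness of a probe set after subtraction of its mismatch background, in arbitrary units. A floor was put at 21.1, the 50th percentile of the pooled signals of both arrays without control probe sets. Lower signals were set to it, and where only 1 array was above it the fold is a bound. Where a gene had several probe sets, the one brightest on average (log2) stood for it. As a gauge of measurement error, log2 differences of probe sets for the same gene were compared: their standard deviation was 0.38 (4645 genes), which includes no spread between animals. Signals of different probe sets depend on the probes, so levels of different genes were not compared. Where signals of cell type markers were summed, bright probe sets weigh most, and signals below the floor were added as deposited.

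The targeted gene Msx1 had signals of 3474 (control) and 42.3 (null), 82.1-fold lower, and Msx2 read 63.4 and 23.6. Which exons were removed is not stated, so it is not known whether these probe sets lie in the deleted part. The labels disagree on the starting material: most describe trypsin-released epithelium, from 5 mice per genotype, whereas the RNA extraction text names stroma and 4 mice. Whether the mice were pooled on an array is not stated. All 11 epithelial markers with a probe set passed the floor on each array, with a median difference of -0.04, and their signals summed to 44532 and 46998 on the control and null arrays. Of 12 stromal markers 11 were above the floor on both arrays, among them the collagen genes Col1a2 and Col3a1 and the proteoglycan gene Dcn, so signal from stroma was present on both. In such a mixture fewer cells of a type and less RNA per cell cannot be told apart.

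The start regions of the 5 genes that were at least 2-fold apart are shown because they are where factors that set transcription act. Each is the 250 bases before the transcription start in RefSeq, build GRCm38.p6, read 5′ to 3′ on the gene's own strand, and capitals mark a GC box (GGGCGG) or a TATA box (TATAAA) on either strand.
Igf1r, chr7:67952007-67952256, plus strand: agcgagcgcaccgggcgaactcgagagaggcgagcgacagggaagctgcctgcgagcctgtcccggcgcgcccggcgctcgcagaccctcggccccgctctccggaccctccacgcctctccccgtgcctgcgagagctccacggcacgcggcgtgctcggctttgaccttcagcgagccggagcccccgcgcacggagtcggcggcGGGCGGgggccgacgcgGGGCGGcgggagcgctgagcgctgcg
Igfbp3, chr11:7213924-7214173, minus strand: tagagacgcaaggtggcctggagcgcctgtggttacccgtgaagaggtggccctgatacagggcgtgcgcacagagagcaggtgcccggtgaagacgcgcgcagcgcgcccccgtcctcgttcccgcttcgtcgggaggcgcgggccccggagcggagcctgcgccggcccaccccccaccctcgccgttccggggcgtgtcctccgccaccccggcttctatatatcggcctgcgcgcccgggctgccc
Irs1, chr1:82291440-82291689, minus strand: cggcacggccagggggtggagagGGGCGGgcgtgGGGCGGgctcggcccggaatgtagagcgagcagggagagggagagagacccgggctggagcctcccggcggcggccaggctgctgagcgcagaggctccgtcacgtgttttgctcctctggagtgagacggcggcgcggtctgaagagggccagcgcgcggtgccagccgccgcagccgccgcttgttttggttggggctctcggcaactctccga
Igfbp4, chr11:99040994-99041243, plus strand: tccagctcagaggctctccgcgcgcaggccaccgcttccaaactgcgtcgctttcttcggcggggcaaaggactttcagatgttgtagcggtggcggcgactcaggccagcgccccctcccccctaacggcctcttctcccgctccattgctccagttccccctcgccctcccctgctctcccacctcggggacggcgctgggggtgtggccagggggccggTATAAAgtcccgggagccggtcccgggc
Igfbp7, chr5:77408046-77408295, minus strand: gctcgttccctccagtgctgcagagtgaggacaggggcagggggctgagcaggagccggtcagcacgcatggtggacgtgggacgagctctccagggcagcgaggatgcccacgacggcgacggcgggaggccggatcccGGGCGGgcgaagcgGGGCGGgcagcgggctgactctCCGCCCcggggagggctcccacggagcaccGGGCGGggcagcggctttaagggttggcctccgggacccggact
All 10 members matched the RefSeq promoter table, with 11 windows that run from 250 bases before to 50 after a start. A GC box lay in the windows of 5 members, Igf1r, Irs1, Igfbp7, Igfbp2 and Irs2, and in 35.7% of all 32851 windows of this length. A TATA box lay in those of Igfbp4 and Igfbp6, against 13.6% of all windows, and that of Igfbp3 held neither motif. Only the exact letters were searched, at any place in a window. The Igfbp6 match is on the opposite strand, and the Igfbp3 window holds the similar stretch tatatat, which was not counted. The homeodomain core TAATTG, which MSX proteins can bind, was in none of the 11 member windows and in 2628 of the 32851. GC boxes stood in front of members that were lower (Igf1r) and higher (Irs1, Igfbp7) alike. These motifs were settled on after the member windows had been searched with a wider set, which included the oestrogen response element, forkhead, E-box, CCAAT and AP-1 motifs and is not reported here. The letters are a description of the windows and not of bound sites.

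**Figure D1:**
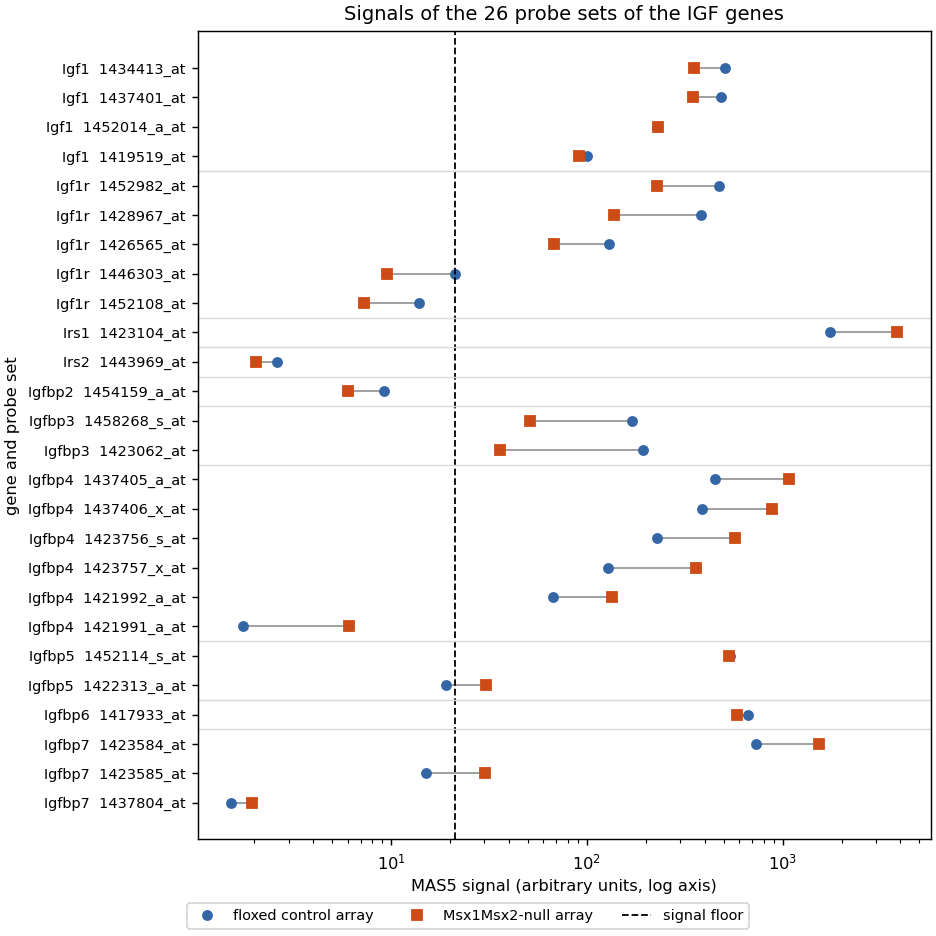
Signals of all 26 probe sets of the 10 genes on a log axis, in MAS5 units, with circles for the floxed control array, squares for the Msx1Msx2-null array and a dashed line at the floor of 21.1. The squares lie left of the circles for Igf1r and Igfbp3 and right of them for Irs1, Igfbp4 and Igfbp7, whereas Irs2 and Igfbp2 lie below the floor on both arrays.

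Igf1, the ligand, was less than 2-fold apart at all 4 of its probe sets, and all 4 were above the floor on both arrays. Probe set 1434413_at, the brightest, read 506 (control) and 351 (null), 1.44-fold lower (log2 -0.53). Probe set 1437401_at was much the same at 482 and 349 (log2 -0.47). The other pair differed less: 1419519_at read 100.4 and 90.9 (log2 -0.14) and 1452014_a_at, whose suffix marks probes shared by alternative transcripts, read 229 and 232 (log2 0.02). The mean over the 4 was -0.28 ± 0.26 (SD over probe sets, which are not replicates). The difference at the brightest probe set was thus larger than the gauge of 0.38 and short of the 2-fold threshold, and 13.9% of all genes compared were as low or lower. The mean over the 4 probe sets and their median (-0.31) were smaller than the gauge.

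Igf1r, the receptor, was lower in the null at each probe set that was bright enough to compare. Its brightest, 1452982_at, read 473 (control) and 230 (null), 2.06-fold lower (log2 -1.04). The next, 1428967_at, read 385 and 138, 2.78-fold lower (log2 -1.48), and 1426565_at read 129.9 and 68.2, 1.90-fold lower (log2 -0.93). These 3 probe sets averaged -1.15 ± 0.29 (SD over probe sets), and the difference of each exceeded the gauge. The brighter pair was designed on the same sequence record, so their readings are not independent. A further probe set, 1446303_at, stood at the floor in the control (21.2) and under it in the null, and 1452108_at was below the floor on both, so neither gave a size. Among all genes compared, 4.35% were as low as Igf1r or lower. Its value lay at the 2-fold threshold: with array medians set equal, with a pseudocount of 16 in place of the floor and with the median over probe sets it read -0.97, -0.99 and -0.99. The last counts 1446303_at at its bound of -0.003, beside the 3 measured probe sets, of which the middle value is -1.04.

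Irs1, the docking protein next in line, was higher in the null. Its only probe set, 1423104_at, read 1745 (control) and 3853 (null), 2.21-fold higher (log2 1.14), and 6.14% of all genes compared were as high or higher. No second probe set was there to check this value. Irs2, its paralogue, was represented by 1443969_at alone, which was below the floor on both arrays at 2.61 and 2.05, so no direction can be given. Receptor and substrate therefore differed in opposite directions on this pair of arrays.

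Igfbp3, the main IGF carrier of serum, was lower in the null, by the largest difference of the 8 measured genes as processed here. Probe set 1458268_s_at read 170 (control) and 51.5 (null), 3.31-fold lower (log2 -1.73). The second, 1423062_at, read 195 and 35.9, 5.42-fold lower (log2 -2.44). Both pointed the same way, but they differed from each other by more than the gauge, with a mean of -2.08 ± 0.50 (SD over 2 probe sets), so the size is less certain than the direction. Only 1.17% of all genes compared were as low or lower. The null signals lay close to the floor, and with the floor at the 67th percentile the difference read -1.23, no longer larger than that of Igfbp4 (1.25).

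Igfbp4, a binding protein that the protease PAPP-A cleaves to free IGF, was higher in the null at 5 of its 6 probe sets, the other being below the floor on both arrays. The brightest, 1437405_a_at, read 450.5 (control) and 1072 (null), 2.38-fold higher (log2 1.25). Probe set 1437406_x_at read 389 and 885 (log2 1.19), 1423756_s_at read 229 and 571 (log2 1.32) and 1423757_x_at read 129 and 361 (log2 1.49). The dimmest of the 5, 1421992_a_at, read 67.5 and 134 (log2 0.99), just short of 2-fold. Together they averaged 1.25 ± 0.18 (SD over 5 probe sets), the smallest spread among the 4 members with several probe sets measured on both arrays. Their suffixes mark probes that match alternative or related transcripts or may cross-hybridise, and several were designed on the same sequence records, so they are not independent readings. All 6 probe sets of the gene carry such a suffix, so no value without them could be given. Of all genes compared 5.10% were as high or higher.

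Igfbp7, the weak binder, which is also abundant in vessel walls, was higher in the null. Probe set 1423584_at read 729 (control) and 1538 (null), 2.11-fold higher (log2 1.08), with 6.78% of all genes as high or higher. A dim probe set, 1423585_at, was below the floor in the control and at 30.3 in the null, a bound of at least 1.44-fold, and the third, 1437804_at, was below the floor on both arrays. The value thus rests on 1 bright probe set, and with the median of its value and that bound it was 0.80.

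The representative probe sets of Igfbp5 and Igfbp6 differed by less than the gauge as deposited. Igfbp5, which also binds extracellular matrix, read 536 (control) and 530.1 (null) at 1452114_s_at (log2 -0.02), and its dim second probe set, 1422313_a_at, crossed the floor to 30.5 in the null, a bound of at least 1.44-fold higher that exceeds the gauge. Igfbp6, which prefers IGF2 to IGF1, read 662 and 583 at its only probe set, 1417933_at (log2 -0.18), and -0.47 under the spike-in scaling, beyond the gauge. The sign for Igfbp5 was not stable: it was 0.06 with array medians set equal and 0.26 with the median over probe sets, the bound included. Igfbp2, a further high-affinity binder, at 9.24 and 6.05, was below the floor on both arrays. The binding proteins therefore split, with 2 of the 5 measured at least 2-fold higher, 1 at least 2-fold lower and the other two between.

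**Figure D2:**
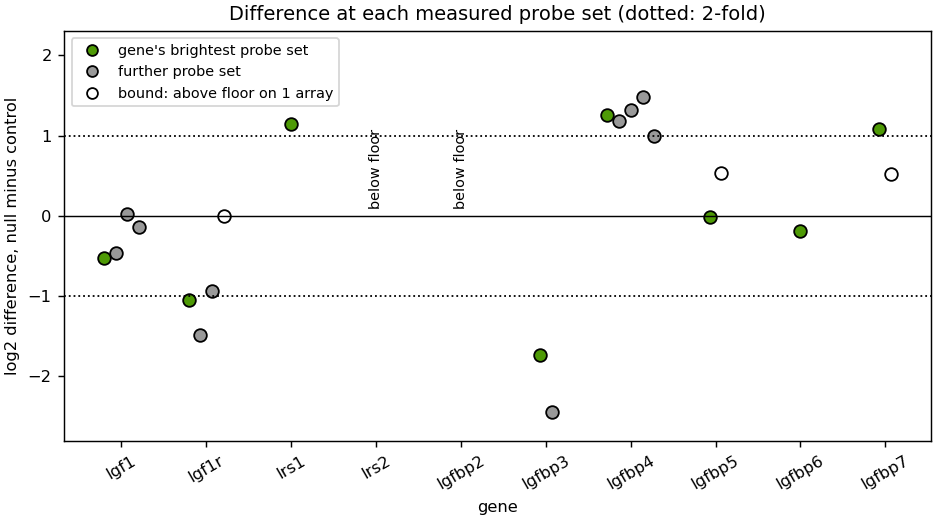
Log2 difference, null minus control, at each of the 21 probe sets that passed the floor on at least 1 array, by gene, with dotted lines at 2-fold. The 5 Igfbp4 points lie between 0.99 and 1.49, the 3 measured Igf1r points between -1.48 and -0.93 and both Igfbp3 points at or below -1.73, while open symbols are bounds.

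Counted by probe set, 18 of the 26 passed the floor on both arrays, 3 on 1 array and 5 on neither. Of the 21 that could be compared, 6 were higher by at least 2-fold, 4 of them from Igfbp4, and 4 were at least 2-fold lower, from Igf1r and Igfbp3. Over all 20942 named probe sets compared, 6.25% were at least 2-fold higher and 6.49% at least 2-fold lower. By gene, 5 of 8 members were past 2-fold in either direction, and 12.5% of all genes were. The members were chosen with earlier results of these data known, so the share of all genes is no test of them. Probe sets of 1 gene share their transcript, so the count by gene is the less redundant.

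**Figure D3:**
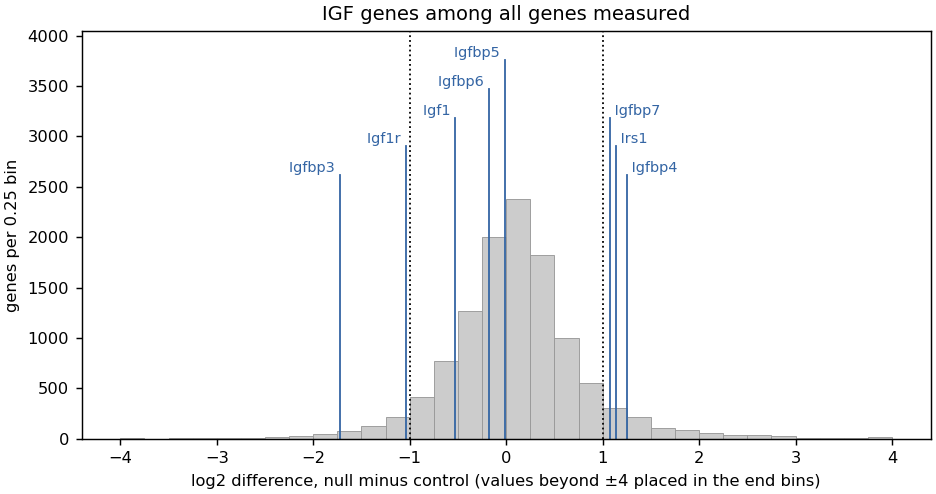
Histogram of the log2 difference, null minus control, of all 11662 genes compared, in bins of 0.25, with a line for each of the 8 measured IGF genes and dotted lines at 2-fold. Igfbp3 stands at -1.73 in the lower tail and Igfbp7, Irs1 and Igfbp4 between 1.08 and 1.25 in the upper shoulder, whereas Igfbp5 and Igfbp6 stand near the peak.

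The counts depended on how the arrays were scaled. When the hybridization spike-ins were used to set the arrays equal, the median of all genes moved by -0.28, and higher genes made up 35.4% of all genes past 2-fold in place of 62.0%. Igfbp4, Irs1 and Igfbp7 then read 0.96, 0.85 and 0.79, short of 2-fold, while Igf1r and Igfbp3 read -1.33 and -2.02. Relative to the median of all genes under that scaling, the same 5 genes stood at 1.16, 1.05, 0.98, -1.14 and -1.82. Under the deposited scaling they stood at 1.17, 1.06, 0.99, -1.13 and -1.81. The spike-in scaling shifts every null signal by the same log2 amount. This likeness therefore follows from the arithmetic and is no check of the differences. The directions of Igf1, Igf1r, Irs1, Igfbp3, Igfbp4, Igfbp6 and Igfbp7 were the same in all 10 settings that gave gene values, and that of Igfbp5 was not. Some settings left values as they were. Floors at the 33rd and 67th percentile did not alter Igf1, Igf1r, Irs1, Igfbp4, Igfbp6 or Igfbp7. Nor did leaving out _x_at, _s_at and _a_at probe sets.

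**Figure D4:**
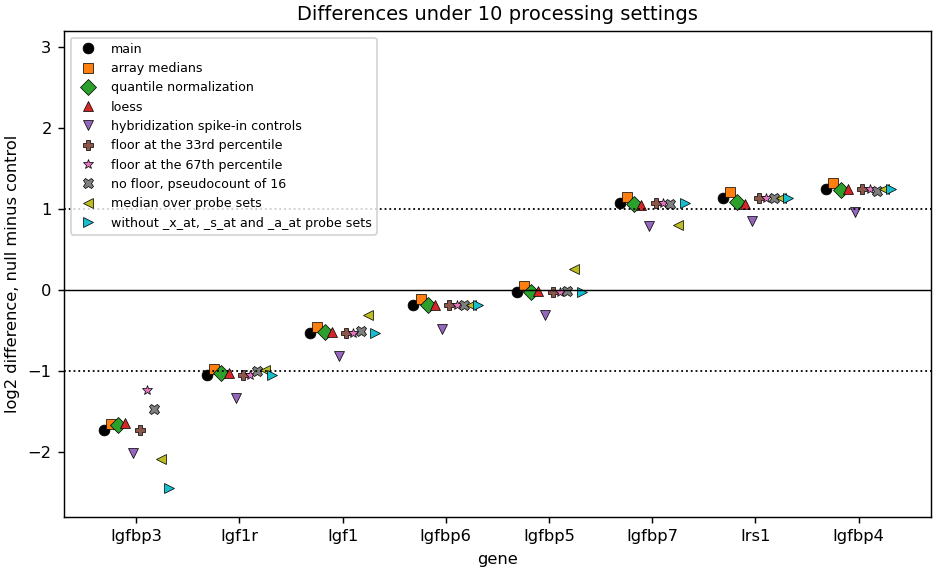
Log2 difference, null minus control, of the 8 measured IGF genes under the main setting and 9 alternatives, with dotted lines at 2-fold. Igfbp3 ranges from -2.44 to -1.23 and Igf1r from -1.33 to -0.97, whereas Igfbp4 ranges from 0.96 to 1.32 and Irs1 from 0.85 to 1.22.

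Markers of other cell types moved on the same arrays. The 12 stromal markers had a median of 0.55 over the 11 measured, none at least 2-fold apart, and their summed signal was 10061 (control) and 12725 (null), with Pdgfrb below the floor on both. Of 8 smooth muscle markers 5 of the 6 measured were at least 2-fold higher (median 1.44), with sums of 307 and 951. Among them were the actin genes Acta2, 3.66-fold higher, and Actg2, at least 3.60-fold higher (below the floor in the control). Transgelin, Tagln, was 3.38-fold higher. Des, the remaining one, was lower, at 54.4 (control) and 41.2 (null), log2 -0.40. Myocd and Lmod1 were below the floor on both arrays. The 7 endothelial markers, all measured, had a median of 0.21 and sums of 310 and 453. Emcn was 2.04-fold higher, Cdh5 and Pecam1 stood at 0.02 and 0.21, and Tek was lower, at -0.28. The endothelial median depended on the floor: it was 0.75 and 0.46 with floors at the 33rd and 67th percentile and 0.52 with the pseudocount. Of 8 macrophage markers 7 were measured (median 0.71), with sums of 1071 and 1757 and Cd163 below the floor on both. Under the spike-in scaling the stromal, smooth muscle, endothelial and macrophage medians were smaller, at 0.26, 1.22, 0.19 and 0.42. These 4 medians lay on the side of Igfbp4, Irs1 and Igfbp7 and opposite to Igf1, Igf1r and Igfbp3.

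Other marker lists did not share that direction throughout. All 4 mesothelial markers were lower, between -0.72 and -0.44 (median -0.60, sums 1078 and 761), on the side of Igf1, Igf1r and Igfbp3. The 5 gland markers measured of 6 were mixed (median 1.00, sums 291 and 336, Prss28 below the floor on both): Foxa2 and Cxcl15 were at least 2-fold higher, and Sox9 and Spink1 at least 2-fold lower. Their median fell to 0.23 with the 67th percentile floor and 0.36 with the pseudocount. Of 6 lymphocyte and plasma cell markers 3 were measured (median 0.17, sums 208 and 1144), and Jchain, the joining chain of secreted antibodies, alone was 13.7-fold higher. This median read 1.68 under the spike-in scaling, 0.92 and 1.96 with the 33rd and 67th percentile floors, and 1.96 without _x_at, _s_at and _a_at probe sets. Cd79a and Ncr1 were below the floor on both. The part of these cell types in the IGF values was not tested.

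The wider pathway was described with 7 further lists of 75 genes, of which 70 had a probe set and 55 could be compared. Of these, 8 exceeded the control by at least 2-fold and 1 was below it by as much, which is 14.5% higher and 1.82% lower, against 7.73% and 4.75% of all genes. The median was 0.08, equal to that of all genes to this precision. The other 46 were not called 2-fold apart, and the 9 past it are named by list. Among the 46, Kazald1 and Socs1 were above the floor on 1 array only, so their values are bounds.

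Among the other ligands, receptors and carriers, none of the 3 genes measured reached 2-fold. Igf2, the second ligand, read 35.3 and 45.3 (log2 0.36). Igf2r, which clears IGF2, read 360 and 425 (log2 0.24), and Insr, the insulin receptor, which can pair with IGF1R in hybrid receptors, read 191 and 339, 1.77-fold higher (log2 0.82). At its brightest probe set the insulin receptor was thus on the other side of 0 from Igf1r. The further probe sets of Insr and Igf2 were below the floor on both arrays. Igfbp1, Igfbpl1, Igfals, Insrr and Ins2 were below the floor on both arrays, as were Igf2bp1 and Igf2bp3, which encode IGF2 mRNA-binding proteins.

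Of the proteases that cut binding proteins and their stanniocalcin inhibitors, 3 of 6 measured were at least 2-fold higher and 1 at least 2-fold lower (all genes 7.73% and 4.75%), with a median of 0.82. That median was 0.33 with the 33rd percentile floor, 0.24 with a pseudocount of 16 in place of a floor and 1.31 without _x_at, _s_at and _a_at probe sets. Adam12, a metalloprotease that cleaves IGFBP3 and IGFBP5, read 32.9 and 109, 3.32-fold higher. Htra1, a secreted serine protease, read 106 and 286, 2.69-fold higher, and its second probe set stood at 1.67 on the log2 scale. Stc2, which inhibits PAPP-A, was below the floor in the control and at 52.4 in the null, at least 2.48-fold higher, and Adam28, another protease of IGFBP3, was at 61.9 in the control and below the floor in the null, at least 2.93-fold lower. Pappa and Pappa2 themselves were below the floor on both arrays. Several of these values sit near the floor, and at the 67th percentile floor the list held 1 gene at least 2-fold higher and none lower. The lower call was also lost without _x_at, _s_at and _a_at probe sets, and 2 genes were higher with the pseudocount or with the median over probe sets. The stromal and smooth muscle marker lists had medians of 0.55 and 1.44, and the epithelial and mesothelial lists -0.04 and -0.60. The part of these cell types in the protease values was not tested.

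Of 11 measured receptor adaptors and brakes, 2 passed 2-fold, both upwards, and the list median was 0.05, though -0.24 under the spike-in scaling and -0.15 without _x_at, _s_at and _a_at probe sets. Irs4, a further receptor substrate, was below the floor in the control and at 136 in the null, at least 6.44-fold higher, but its second probe set was below the floor on both arrays. Grb14, an adaptor that dampens the insulin receptor, was at least 4.37-fold higher, at 92.3 in the null. Its second probe set was likewise below the floor on both arrays. The docking protein gene Gab1 read 274 and 443 (log2 0.70), and Socs3, a feedback inhibitor, read 738 and 423 (log2 -0.80), with its further probe sets at -0.57 and -0.43. With the floor at the 67th percentile neither Irs4 nor Grb14 reached 2-fold.

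Downstream, the PI3K, AKT and mTOR list had a median of -0.07 that was 0.01 with array medians set equal. At the brightest probe set of each gene, only 1 of 19 genes was 2-fold apart. That gene was Eif4ebp1, a translation repressor controlled by mTOR, at 78.2 and 165 (2.11-fold higher). Its second probe set stood at 0.80, but the third went the other way, from 22.5 in the control to 8.93 (below the floor) in the null. No gene of the list was at least 2-fold higher under the spike-in scaling, with the pseudocount or with the median over probe sets, while 2 were at least 2-fold lower under the first and 1 under the last. Pik3r1, the regulatory subunit that docks on IRS proteins, was 1.65-fold lower at 800.2 and 485, and its 4 probe sets lay between -0.88 and -0.70. Rictor, a subunit of mTOR complex 2, was 1.81-fold lower at the brightest probe set (log2 -0.85), and its further probe sets read -1.07, -1.31 and -0.98. Pik3cb, a catalytic subunit, read 219 and 145 (log2 -0.59). The lower values of Pik3r1 and Rictor thus held across their probe sets without the brightest reaching 2-fold. Dimmer probe sets of other genes were also past 2-fold lower. For Gsk3b, at -0.00, these read -1.16 and -1.05, beside another at 0.37. For Pik3ca, at -0.08, they read -1.06 and -1.09, and for Tsc1, at -0.56, 1 read -1.37.

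FOXO factors are held inactive by AKT, and 1 of 12 measured genes of that list was at least 2-fold higher, with a median of 0.24 that was -0.05 under the spike-in scaling. Klf15, a FOXO-responsive Krüppel-like factor, read 68.9 and 244, 3.54-fold higher. Txnip, a thioredoxin inhibitor, stood at 0.76 and Foxo3 at 0.64, with its second probe set at 0.12. Foxo1, at 0.36, had further probe sets at -0.13 and 0.24, so its direction is uncertain. Sesn1 stood at 0.31 at its brightest probe set, while dimmer ones read -1.23, -0.17 and 0.31, the last as a bound. Of 4 measured secreted proteins related to binding proteins, Ccn1 (known as Cyr61) was 2.35-fold higher, from 1177 to 2769, with further probe sets between 0.78 and 1.16. The brightest probe set of Ccn1 is of the _x_at type, which may cross-hybridise, and no gene of this list was at least 2-fold higher under the spike-in scaling, with the median over probe sets or without _x_at, _s_at and _a_at probe sets. Ccn2, also known as connective tissue growth factor, read 5852 and 3728 (log2 -0.65) and Ccn4 stood at 0.61. The list median was 0.34, and -0.01 with the pseudocount.

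**Figure D5:**
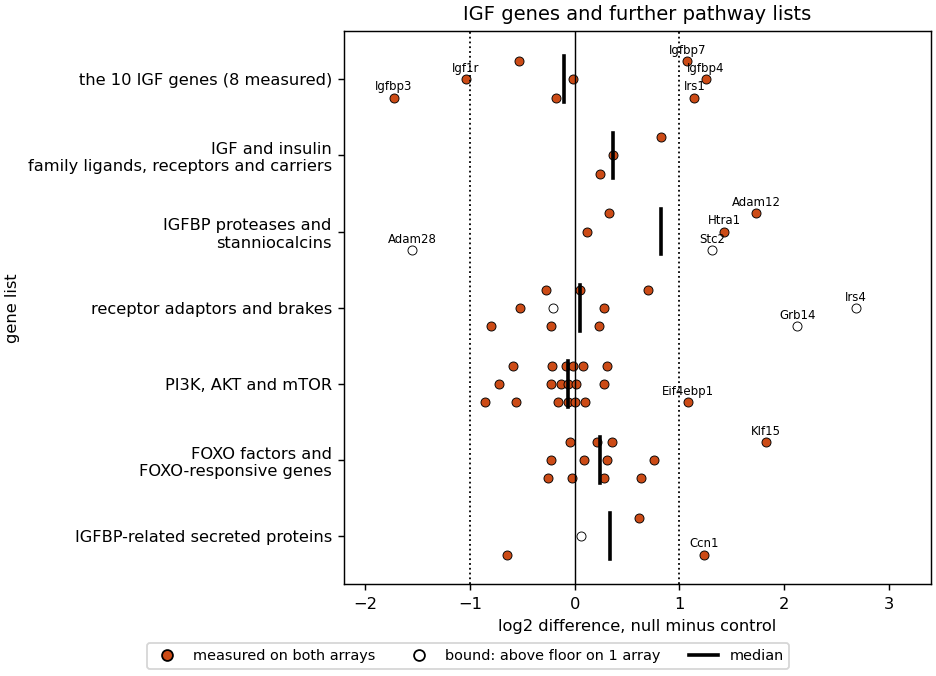
Log2 difference, null minus control, of each measured gene of the 10 IGF genes and of 6 further pathway lists, with black bars for medians, open symbols for bounds and dotted lines at 2-fold. Each gene is shown by its brightest probe set. The PI3K, AKT and mTOR list is centred on -0.07 with Eif4ebp1 as its only gene past 2-fold as deposited, whereas the 10 IGF genes spread from -1.73 to 1.25.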

How the data were processed

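Signals were measured on 2 Affymetrix expression arrays, 1 per genotype. Per the submitters' processing notes, the authors made the deposited intensity values with MAS5 in Affymetrix Expression Console version 1, and on both arrays their 2% trimmed mean was 150.001, so differences in total RNA per cell are not visible. Per the labels' protocols, tissue was kept in 1% trypsin for 90 min and 100 ng of total RNA was amplified and labelled. The values were taken to log2 as deposited, with Python 3.11.15, numpy 2.4.6 and pandas 2.3.3, after the calculations had been tested on simulated data. Probe sets listed with several genes (932 of 35890) and the 64 control probe sets were left out. Alternatives were 4 other scalings (array medians, quantile, loess with a span of 0.3 in statsmodels 0.14.6, and 18 hybridization spike-in probe sets), floors at the 33rd and 67th percentile, a pseudocount of 16, the median over probe sets, no _x_at, _s_at or _a_at probe sets, and thresholds of 1.5-fold and 3-fold. With the median over probe sets, bounds were taken in as values. Genes with only _x_at, _s_at or _a_at probe sets kept them, so leaving these out was no check of Igfbp4 or Igfbp5. Each of the 10 members was named, as was, from each pathway list, every gene 2-fold apart and otherwise the largest differences up to 4. Members, lists and tests were chosen with earlier results of these data known. No genes were ranked by likeness to a member, since 2 arrays give 1 difference per gene. Markers of 8 cell types were summarised as lists. No gene coordinates are given, because the labels name no genome build, except for the printed RefSeq windows.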

Additional observations from a re-analysis of the deposited data

How the results depend on the processing

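No paired analysis was possible because there was 1 array per genotype, and for the same reason no replicate could be left out. A change was called a move where a log2 value shifted by more than 0.38, the gauge of error, or a count by over 1.5 times. With array medians set equal, with a pseudocount of 16 and with the median over probe sets, 1 member gene was at least 2-fold lower in place of 2, Igf1r falling short. Under the spike-in scaling 0 member genes and 2 member probe sets were at least 2-fold higher, beside 572 higher and 1044 lower of all genes and 822 and 2516 of all named probe sets. With the 33rd percentile floor 2160 named probe sets were higher and 2127 lower, Igfbp2 became measurable at -0.10, and the median of the protease and stanniocalcin list was 0.33. With the 67th percentile floor 495 genes were higher and 365 lower, 670 and 722 named probe sets, and Igfbp3 was at -1.23. With the pseudocount Igfbp2 read -0.20, Irs2 -0.04 and the protease list 0.24. Without _x_at, _s_at and _a_at probe sets Igfbp3 read -2.44 and the protease list 1.31. At 1.5-fold 2040 genes were higher and 1405 lower (3157 and 3353 named probe sets). At 3-fold the numbers were 346 and 176 (486 and 371), with 0 member genes higher and 1 lower, and 0 and 2 member probe sets. Of 224 recomputed main results 192 did not move in this sense, counting those that a setting could not alter. None of the results at least 2-fold apart changed sign. Signals close to the floor limit Irs2, Igfbp2 and the dim probe sets of Igf1r, Igfbp5 and Igfbp7.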

Other observations

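The binding protein genes lie in recurrent neighbourhoods, which were looked at after the values were seen. In RefSeq's gene order Igfbp2 and Igfbp5 are adjacent, as are Igfbp1 and Igfbp3, and 4 of the members have a tensin gene, which encodes a focal adhesion protein, within 2 genes on either side. Igfbp3, at -1.73, is next to Tns3, which read 2482 (control) and 1799 (null) (log2 -0.46). Adcy1, within 2 genes of Igfbp3, went the other way. It was below the floor in the control and at 64.6 in the null, at least 3.06-fold higher. Igfbp4, at 1.25, lies between Top2a, a DNA topoisomerase gene at 0.24, and Tns4, which was below the floor in the control and at 49.6 in the null, at least 2.35-fold higher. Tns1, near Igfbp5, stood at 0.26 and Tns2, near Igfbp6, at -0.02, each within the gauge of error.

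Both substrate genes neighbour genes of type IV collagen, the network collagen of basement membranes. Beside Irs2, which was below the floor, Col4a1 read 146 (control) and 549 (null), 3.77-fold higher, and Col4a2 read 83.5 and 239.9, 2.87-fold higher. Near Irs1, at 1.14, Col4a4 read 38.3 and 81.7, 2.13-fold higher. Stromal, smooth muscle and endothelial marker lists had medians of 0.55, 1.44 and 0.21, and their part in these values was not tested.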
